A study of Homo sapiens with 12 samples.

Results

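The comparison described here sets HaCaT keratinocytes given M5 against untreated HaCaT keratinocytes, with 3 RNA sequencing libraries of each. HaCaT is an immortalised human epidermal keratinocyte line. The libraries were chosen by their labels, the 3 M5 libraries and the 3 untreated ones, and are 6 of the 12 libraries of the series. The members described are the 14207 genes, of 22545 in the count table, that passed edgeR's filter on low counts. The 8338 genes that did not pass had at most 104 counts over the 6 libraries, and 1450 of them had none. All 6 libraries carry the genotype label WT and the same batch label, and the untreated cells received neither M5 nor a compound. Cells given M5 together with lefamulin or with retapamulin, antibiotics of the pleuromutilin class, make up the other 6 libraries and entered the scaling, the filter and the model, there to help estimate the spread between replicates. The composition of M5, its dose, the time of treatment and any vehicle are not stated in the labels. The labels do not say that replicates were separate cultures, so the p-values below measure only the spread between these libraries, which may be technical.

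M5 is the usual name of a cytokine mix of interleukin-17A, interleukin-22, oncostatin M, interleukin-1 alpha and tumour necrosis factor that is used to give cultured keratinocytes features of psoriatic skin. As background, interleukin-1, interleukin-17 and tumour necrosis factor receptors signal through adaptor proteins and kinases to the NF-kB and AP-1 transcription factors, while interleukin-22 and oncostatin M receptors signal through Janus kinases to STAT3. In keratinocytes these routes drive chemokines for neutrophils and T cells, antimicrobial proteins, further cytokines and their own inhibitors.

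Each of the 6 libraries held between 35110519 and 37272290 counts, and levels are given as CPM, the usual per-library scaling of counts, with library sizes adjusted by the trimmed mean of M values (TMM). A gene is called higher or lower in M5 where edgeR's quasi-likelihood test gave an adjusted p under 0.05 (Benjamini-Hochberg, over 14207 genes). Values after ± are SD over the 3 libraries of a group unless given as SE. Log2 fold changes are M5 over untreated. The spread between replicates was small, with a median SE of 0.0658 on the log2 scale, so that shifts of a few percent could pass the test.

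By these criteria 4022 genes (28.3%) were called higher in M5 and 3817 (26.9%) lower, together 55.2% of all tested genes. The median log2 fold change of all tested genes was -0.02. At library totals alone, with no TMM scaling, it was -0.14, and the split became 2675 higher and 5823 lower, so that 31.5% of the calls were higher instead of 51.3%. Small shifts therefore depend on the scaling, and the counts of genes that changed at least 2-fold depend on it less. In all, 720 genes (5.07%) were called and at least 2-fold higher, and 785 (5.53%) called and at least 2-fold lower. The large changes were mostly rises. By fitted values there were 208 rises and 79 falls at 8-fold or more and 100 rises and 7 falls at 32-fold or more. At 128-fold or more there were 51 rises and no fall. Called genes with no count in 1 group, 30 among the rises and 4 among the falls, entered by fitted values, which are no bounds. CXCL6, for example, has a fitted log2 fold change of 8.49 but a bound of at least 48.4-fold, so the largest classes may be overstated. The 3 M5 libraries lay entirely above the 3 untreated ones for 4228 genes (29.8%) and entirely below them for 4180 (29.4%), together 59.2% of the genes tested.

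**Figure D1:**
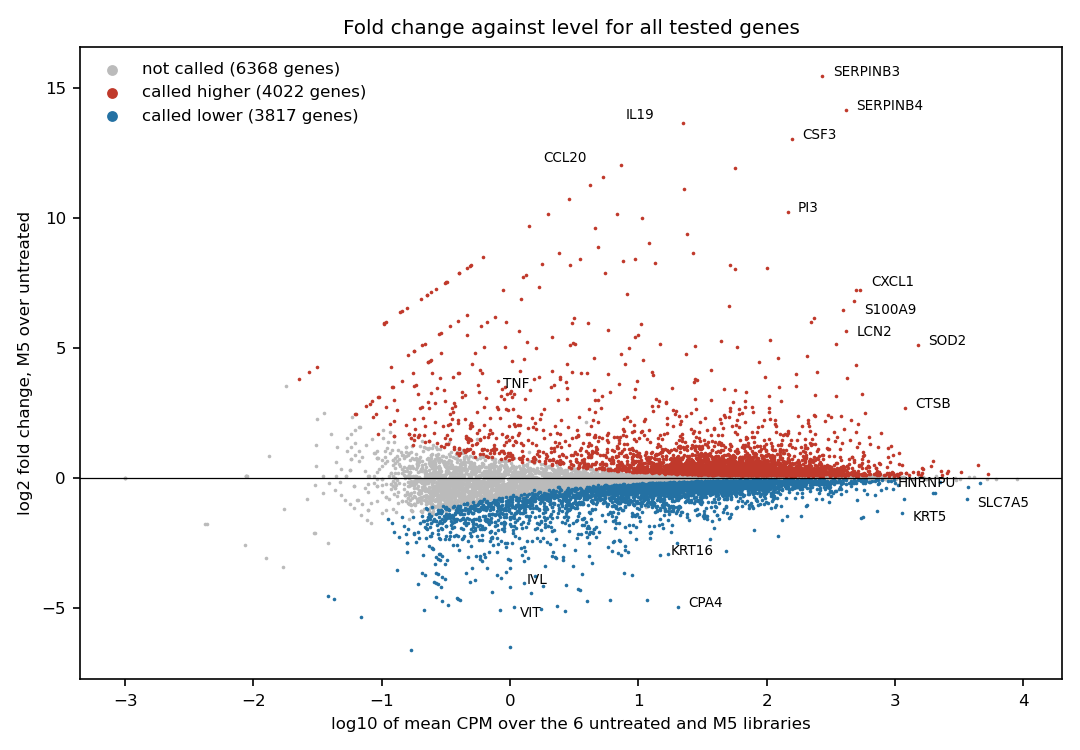
Each point is 1 of the 14207 tested genes, with the log10 of its mean CPM over the 6 libraries on the horizontal axis and its fitted log2 fold change, M5 over untreated, on the vertical axis. Red points are the 4022 genes called higher, blue the 3817 called lower and grey those not called. The fitted values of genes with no count in 1 group depend on the prior count and are no bounds. Fitted rises reach larger values than fitted falls.

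The 720 genes that were at least 2-fold higher took 1.86% ± 0.0212 of all counts in the untreated libraries and 6.87% ± 0.0435 in the M5 libraries. The 785 genes that were at least 2-fold lower went from 1.39% ± 0.00824 of the counts to 0.482% ± 0.00526. Of the 12250 protein-coding genes tested, 3822 were higher and 3395 lower. The 1483 long noncoding RNAs tested gave 139 higher (9.37%) and 324 lower (21.85%), with a median log2 fold change of -0.28. Genes of any kind with a mean under 1 CPM over the 12 libraries gave 8.48% higher and 21.05% lower, with a median of -0.38. The part of level in the values of the noncoding RNAs was not tested.

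Keratinocyte character was examined on markers, and the identity of the line was not tested. Of the 14 keratinocyte markers, 7 were called higher and 3 lower, against 28.3% and 26.9% of all tested genes. Their summed level was 8739 to 8964 CPM over the untreated libraries and 8908 to 9262 CPM over the M5 libraries. Their median log2 fold change was 0.11, and -0.01 at library totals. TP63, the master regulator of stratified epithelium, rose from 104 ± 5.40 to 228 ± 10.3 CPM. KRT5, the basal keratin, fell from 1632 ± 46.3 to 637 ± 25.3 CPM, and its partner KRT14 was low throughout, from 8.52 ± 0.470 to 3.43 ± 0.320 CPM. Defining genes of other cell types differed in level. PTPRC, the pan-leukocyte marker CD45, had 2 counts over the untreated libraries and 0 over the M5 libraries, PECAM1 had 1 and 2, and DCN, LUM and THY1 had at most 3 counts in either group. ITGAM, of myeloid cells, had 19 and 19 counts, and DCT, of melanocytes, 23 and 11. Other genes of these marker lists were tested and called, some of them at low levels. CD14 rose from 0.391 ± 0.0461 to 1.58 ± 0.197 CPM, CD68 from 12.4 ± 1.03 to 29.0 ± 0.578 CPM and LAPTM5 from 0.203 ± 0.116 to 2.86 ± 0.315 CPM, which were all 3 tested leukocyte markers of a list whose summed level was 12.2 to 14.01 CPM in untreated and 32.98 to 33.7 CPM in M5 libraries. CDH5, a cadherin of endothelium, rose from 15.5 ± 1.08 to 119.6 ± 2.66 CPM, while VWF fell from 0.476 ± 0.163 to 0.0543 ± 0.0279 CPM. Of 10 fibroblast markers, only PDGFRA and COL1A1 were tested, with PDGFRA from 0.00833 ± 0.0144 to 0.227 ± 0.166 CPM and COL1A1 from 7.42 ± 0.469 to 6.09 ± 0.798 CPM. COL1A1 lost its call without untreated replicate 1 (-0.28), untreated replicate 2 (-0.24) or M5 replicate 2 (-0.18 in log2), and likewise with no filter (-0.27) and in the fit of the 6 libraries (-0.28). Of melanocyte and Merkel cell markers, 2 were tested and neither was called. In bulk RNA, a change in the number of cells of a kind and a change in RNA per cell cannot be told apart. The part of other cells in the results was not tested beyond these markers.

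Receptors of the usual M5 cytokines and of related cytokines did not move as a block. Among these chains, 12 of 21 tested members were called higher and 6 lower, with a median log2 fold change of 0.59. The shares over all tested genes were 28.3% higher and 26.9% lower. OSMR, the oncostatin M receptor chain, had 106, 99.0 and 102 CPM in the untreated libraries and 467, 449 and 472 CPM in the M5 libraries. Its log2 fold change was 2.18 ± 0.03 (SE, edgeR adjusted p = 1.30e-25), with all M5 libraries above all untreated ones. The shared signalling chain IL6ST (gp130) rose from 128.2 ± 12.3 to 283 ± 14.7 CPM. IL1R1 and IL1RAP, the 2 chains of the interleukin-1 receptor, rose from 28.1 ± 2.54 to 59.3 ± 1.83 CPM and from 58.1 ± 3.42 to 118 ± 7.59 CPM. The decoy receptor IL1R2, which binds interleukin-1 without signalling, rose as well, from 10.8 ± 0.956 to 22.4 ± 0.307 CPM. IFNGR1, the ligand-binding chain of the interferon gamma receptor, had 74.3, 75.3 and 71.5 CPM in the untreated libraries and 393, 393 and 403 CPM in the M5 libraries. This was the largest rise in the list, 2.43 ± 0.03 (SE, edgeR adjusted p = 6.13e-26) in log2. TNFRSF1A, the main receptor of tumour necrosis factor, rose from 70.6 ± 3.68 to 126 ± 2.47 CPM.

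Chains of the interleukin-17 and interleukin-22 receptors split. IL17RA, the common chain, rose by 0.38 in log2, and IL17RC, its partner for interleukin-17A, had a log2 fold change of -0.43. IL17RE, the partner for interleukin-17C, had 9.51, 10.3 and 10.2 CPM in the untreated libraries and 1.5, 1.37 and 1.80 CPM in the M5 libraries. It fell by 2.68 ± 0.19 (SE, edgeR adjusted p = 8.42e-12) on the log2 scale without overlap. IL22RA1 and IL10RB, the 2 chains of the interleukin-22 receptor, both fell, from 1.71 ± 0.208 to 0.666 ± 0.196 CPM and from 14.2 ± 1.77 to 8.94 ± 0.688 CPM. LIFR, the receptor of leukaemia inhibitory factor, fell from 19.2 ± 1.35 to 10.4 ± 1.36 CPM.

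In the list of adaptors and kinases downstream of the receptors, 23 of 39 tested members were called higher and 6 lower. The shares over all tested genes were 28.3% and 26.9%, and the median log2 fold change of the list was 0.26. At library totals the same list gave 19 higher and 12 lower, and all 14207 tested genes 2675 higher and 5823 lower. IRAK2, a kinase of the interleukin-1 receptor complex, had 0.0256, 0 and 0.0250 CPM in the untreated libraries and 2.06, 1.24 and 1.21 CPM in the M5 libraries. It was 88.5-fold higher (95% counting interval 24.1 to 736, edgeR adjusted p = 9.40e-11). TRAF1 rose from 0.406 ± 0.124 to 6.71 ± 0.120 CPM and BIRC3, the ubiquitin ligase cIAP2, from 23.0 ± 2.79 to 132 ± 7.2 CPM. JAK2 rose from 7.14 ± 0.740 to 22.1 ± 0.133 CPM and IKBKE from 33.2 ± 1.93 to 91.2 ± 3.26 CPM. Of the core kinases of the canonical route, CHUK rose by 0.37 in log2, and IKBKB, at -0.15, was not called. It was called lower at library totals (-0.27), with a filter of 1 CPM in 3 libraries (-0.17), in both FPKM fits (-0.23 and -0.26) and without untreated replicate 1 (-0.21). MAP3K14, the kinase NIK of the noncanonical route, fell from 49.0 ± 0.955 to 25.6 ± 0.523 CPM. TRAF3, which marks that kinase for degradation, rose from 39.0 ± 1.35 to 69.3 ± 1.49 CPM. TRAF5 had the other marked fall in the list, from 22.6 ± 0.926 to 14 ± 0.443 CPM.

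All 11 tested NF-kB and I-kB proteins were higher in M5, with a median log2 fold change of 1.20, against 28.3% of all tested genes. All 11 were higher as well with RLE size factors and at library totals. The smallest rise was that of RELA, 0.38 ± 0.04 (SE, edgeR adjusted p = 1.56e-09) in log2, and the largest were in regulators of the pathway. BCL3, a nuclear I-kB protein that binds p50 and p52, had 6.85, 9.05 and 8.85 CPM in the untreated libraries and 66.4, 68.0 and 63.4 CPM in the M5 libraries. NFKBIZ, the nuclear I-kB protein through which interleukin-17 induces many of its targets, had 19.6, 18.6 and 22.2 CPM in the untreated libraries and 129.6, 139 and 135 CPM in the M5 libraries. NFKBIA, the inhibitor I-kB alpha, had 75.7, 76.9 and 78.5 CPM in the untreated libraries and 397, 396 and 413 CPM in the M5 libraries. The groups did not overlap in any of these 3 genes, and the log2 fold changes were 3.00 ± 0.08, 2.74 ± 0.05 and 2.38 ± 0.03 (SE). The precursors NFKB1 and NFKB2 rose from 112 ± 1.5 to 258 ± 5.46 CPM and from 96.5 ± 4.02 to 336 ± 9.30 CPM, and RELB from 20.3 ± 0.950 to 63.0 ± 1.24 CPM.

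In the STAT, C/EBP and IRF families, 14 of 17 tested were called higher and 1 lower, against 28.3% and 26.9% of all tested genes. Their median log2 fold change was 0.38. CEBPD and CEBPB, acute-phase transcription factors, rose from 20.2 ± 1.76 to 229 ± 9.21 CPM and from 34.1 ± 2.60 to 158 ± 1.96 CPM. CEBPA, known from differentiating cells, was the 1 member that fell, from 9.89 ± 1.48 to 3.23 ± 0.373 CPM. STAT3 itself rose from 209 ± 6.07 to 313 ± 7.08 CPM, with a log2 fold change of 0.59 ± 0.03 (SE, edgeR adjusted p = 7.51e-14). STAT5A rose from 0.529 ± 0.218 to 4.23 ± 0.613 CPM. Of AP-1 and immediate early factors, 18 of 21 tested members were called higher and 2 lower, with a median log2 fold change of 0.69. FOSL2 rose from 57.0 ± 3.65 to 293 ± 6.46 CPM, IER3 from 75.0 ± 2.33 to 302 ± 2.58 CPM, MAFF from 14.3 ± 1.35 to 42.3 ± 3.04 CPM and KLF5 from 55.4 ± 1.31 to 154 ± 6.76 CPM. EGR1, the serum-induced early growth response factor, was 1 of the 2 that fell, from 16.2 ± 1.53 to 10.1 ± 0.954 CPM.

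Many inhibitors of the same routes were higher as well, and some were lower. In the list of feedback regulators, 20 of 32 tested were called higher and 6 lower, against 28.3% and 26.9% of all tested genes. Their median log2 fold change was 0.49. TNIP3, a partner of the ubiquitin-editing enzyme A20, had 0.0511, 0.0259 and 0.125 CPM in the untreated libraries and 45.8, 47.0 and 49.95 CPM in the M5 libraries. Its log2 fold change was 9.38 ± 0.18 (SE, edgeR adjusted p = 2.75e-23), with each M5 library far above the untreated ones. TNFAIP3, which encodes A20, had 20.9, 17.5 and 21.6 CPM in the untreated libraries and 318, 313 and 318 CPM in the M5 libraries. SOCS3, the STAT3-induced inhibitor of gp130 signalling, had 9.94, 9.47 and 9.90 CPM in the untreated libraries and 235, 237 and 234 CPM in the M5 libraries. The 2 genes rose by 3.99 ± 0.05 and 4.59 ± 0.05 (SE) in log2 and neither overlapped between the groups. SOCS1 rose from 0.520 ± 0.129 to 16.4 ± 1.15 CPM, ZC3H12A, a ribonuclease that degrades inflammatory messages, from 12.2 ± 1.12 to 182 ± 2.22 CPM, and TNIP1 from 78.8 ± 3.52 to 343 ± 9.97 CPM. Members acting on MAP kinases moved less and in both directions. SPRY4 and DUSP8 rose by 1.52 and 1.72 in log2, while DUSP10 was lower, at -0.68. CISH, an inhibitor in the STAT5 pathway, fell from 3.92 ± 0.602 to 1.72 ± 0.259 CPM.

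**Figure D2:**
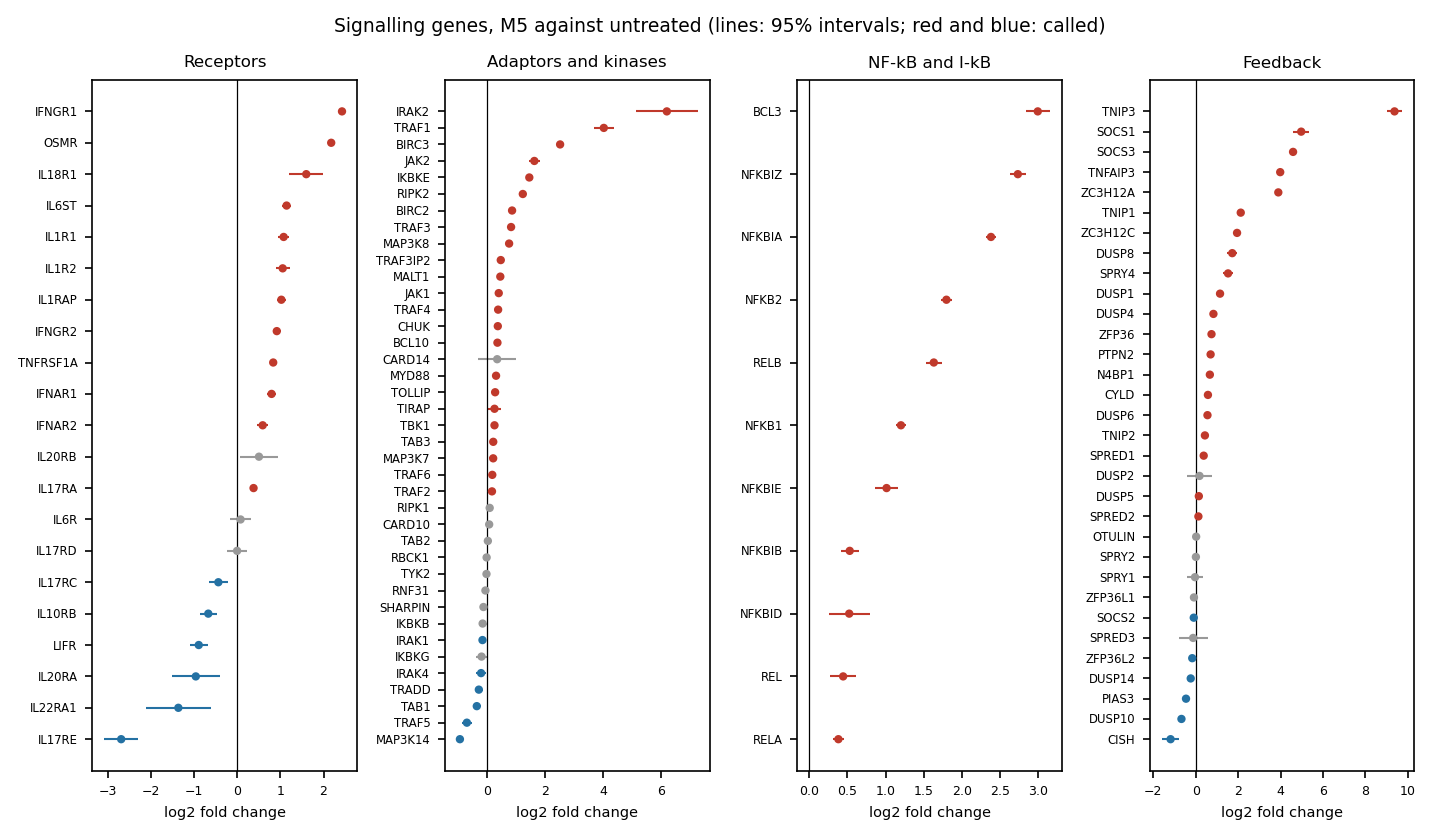
Log2 fold change of every tested member of 4 lists, M5 over untreated, on the horizontal axes, with genes in rows and horizontal lines for 95% intervals from the fit. Red genes were called higher, blue lower and grey not called. All 11 NF-kB and I-kB genes lie right of 0, while receptors range from IL17RE at -2.68 to IFNGR1 at 2.43. The fitted value of IRAK2, with 2 counts over the untreated libraries, is no bound.

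Chemokines held many of the largest changes. All 6 tested CXC chemokines that draw neutrophils were called higher, against 28.3% of all tested genes. The largest and most abundant of them were separate by orders of magnitude. CXCL2, also in the list, was not in the count table. CXCL8, interleukin-8, had 6.54, 6.20 and 7.15 CPM in the untreated libraries and 934, 1015 and 1013 CPM in the M5 libraries. CXCL1 had 7.05, 7.91 and 6.65 CPM in the untreated libraries and 1047, 1055 and 1111 CPM in the M5 libraries. CXCL5 had 0.0256, 0.0259 and 0 CPM in the untreated libraries and 44.1, 46.4 and 46.9 CPM in the M5 libraries. None of the 3 overlapped between groups, and in log2 CXCL8 rose by 7.22 ± 0.05 (SE, edgeR adjusted p = 8.46e-32) and CXCL1 by 7.22 ± 0.05 (SE, edgeR adjusted p = 5.49e-32). CXCL5, with 2 counts over the untreated libraries, was 2693-fold higher (95% counting interval 745 to 22246, edgeR adjusted p = 7.49e-24). CXCL3 rose from 0.738 ± 0.203 to 200.3 ± 5.96 CPM. CXCL6 and PPBP had no count in the untreated libraries and were at least 48.4-fold higher and at least 329-fold higher. These 2 genes and CXCL5 passed the filter only through cells given M5, so their direction was largely fixed by it. Bounds of this kind are taken against 3 counts over the 3 untreated libraries, 0.0255 CPM, and cover counting error only. The median log2 fold change of the 6 was 8.28 as fitted and 7.65 with those 2 genes at their bounds. Per length, in the deposited FPKM, CXCL1 and CXCL8 reached 922 and 485 in M5 and CXCL5 19.

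Among the other chemokines, 9 of 10 tested were called higher and 1 lower, against 28.3% and 26.9% of all tested genes. Their median log2 fold change was 4.32. CCL20, CCL4, CXCL9 and CCL3 passed the filter only through cells given M5, which largely fixed their direction, and CCL4 had 5 counts in M5. A further 7 members did not pass it. They include CXCL10, with 4 counts over the untreated and 18 over the M5 libraries, and CXCL11, with 11 and 13. CCL20, the ligand of CCR6 that recruits interleukin-17-producing T cells and dendritic cells, had no count in the untreated libraries and 14.8, 14.8 and 14.1 CPM in the M5 libraries. It was at least 572-fold higher (edgeR adjusted p = 3.28e-18). CCL2, which draws monocytes, had 8.84, 8.59 and 9.05 CPM in the untreated libraries and 758, 783 and 808 CPM in the M5 libraries. It rose by 6.47 ± 0.05 (SE, edgeR adjusted p = 8.46e-32) in log2. CXCL9, a ligand of CXCR3, went from 1 count over the untreated libraries to 4.77 ± 0.691 CPM, and CCL5 rose from 0.900 ± 0.0220 to 21.0 ± 0.854 CPM. CCL26, an eosinophil chemokine, was the 1 chemokine that fell, from 1.5 ± 0.192 to 0.685 ± 0.0784 CPM. CCL3 rose from 0.0172 ± 0.0149 to 2.41 ± 0.394 CPM, and its reads cannot be told from those of its near copies.

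Members of the interleukin-1 family went in both directions. IL1B had 25.8, 30.2 and 26.9 CPM in the untreated libraries and 454, 463 and 475 CPM in the M5 libraries. IL1A had 14.9, 14 and 17.9 CPM in the untreated libraries and 386, 409 and 406 CPM in the M5 libraries. IL36G, the keratinocyte interleukin-36 ligand, had 0.0511, 0.0259 and 0.050 CPM in the untreated libraries and 10.5, 11.7 and 10.7 CPM in the M5 libraries. These 3 agonists rose without overlap, IL1B by 4.07 ± 0.05 (SE), IL1A by 4.68 ± 0.06 (SE) and IL36G by 7.90 ± 0.18 (SE) in log2. IL33 had no count in the untreated libraries and was at least 111-fold higher (edgeR adjusted p = 2.77e-11). IL36RN, the interleukin-36 receptor antagonist, had 3.6, 4.20 and 3.55 CPM in the untreated libraries and 0.561, 0.467 and 0.375 CPM in the M5 libraries. Its log2 fold change was -3.01 ± 0.17 (SE, edgeR adjusted p = 1.75e-13). IL1RN, the interleukin-1 receptor antagonist, fell from 2.34 ± 0.103 to 1.5 ± 0.371 CPM, and IL18, an agonist of its own receptor, fell from 58.8 ± 1.07 to 39.0 ± 2.01 CPM. IL36A and IL36B had at most 1 count in either group and were not tested.

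Of the remaining cytokines and growth factors, 30 of 41 tested were called higher and 5 lower, against 28.3% and 26.9% of all tested genes. Their median log2 fold change was 1.52. IL19 had no count in the untreated libraries and 42.8, 45.2 and 46.0 CPM in the M5 libraries. It was at least 1752-fold higher (edgeR adjusted p = 5.77e-20). The related cytokines IL20 and IL24, which act on keratinocytes through the same receptor family, rose to 10.6 ± 0.797 and 13.7 ± 0.215 CPM from 0 and 1 count over the untreated libraries. CSF3, the granulocyte colony-stimulating factor, had 0, 0.0259 and 0.0750 CPM in the untreated libraries and 319, 314 and 318 CPM in the M5 libraries. It had 4 counts over the untreated libraries, and its log2 fold change was 13.05 ± 0.10 (SE, edgeR adjusted p = 1.47e-31). LIF rose from 18.8 ± 1.61 to 675 ± 11.1 CPM and IL6 from 0.424 ± 0.0566 to 18.5 ± 0.697 CPM. TNF, which is itself a usual component of M5, had 0.409, 0.545 and 0.450 CPM in the untreated libraries and 5.29, 4.73 and 5.34 CPM in the M5 libraries. Its message rose by 3.44 ± 0.23 (SE, edgeR adjusted p = 3.87e-12) in log2 and did not overlap between the groups. IL23A, a subunit of interleukin-23, rose from 2.67 ± 0.213 to 7.08 ± 0.0516 CPM, and its partner IL12B was not in the count table. Of the EGF receptor ligands in the list, HBEGF rose from 3.67 ± 0.112 to 51.6 ± 1.29 CPM, EREG from 1.07 ± 0.133 to 9.41 ± 0.805 CPM, AREG from 7.60 ± 0.537 to 39.6 ± 2.17 CPM, TGFA from 71.5 ± 4.66 to 173 ± 1.99 CPM and EPGN from 0.903 ± 0.255 to 3.61 ± 0.399 CPM. BTC, betacellulin, stood at 2.34 ± 0.396 and 2.39 ± 0.481 CPM and was not called. EGF itself, which is not in the list and was chosen after its values were seen, fell from 0.916 ± 0.142 to 0.324 ± 0.119 CPM. BMP4 and TGFB2, growth inhibitors of epithelium, fell from 4.66 ± 0.0814 to 1.12 ± 0.368 CPM and from 39.0 ± 3.61 to 16.7 ± 0.770 CPM. Their relatives BMP2, INHBA and TGFB1 in the list were called higher, by 1.69, 2.09 and 0.65 in log2.

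Antimicrobial proteins and alarmins were higher in 17 of 18 tested members, against 28.3% of all tested genes, and their median log2 fold change was 5.93. Members with at most 3 counts over the untreated libraries, such as DEFB4A, S100A8 and S100A12, passed the filter only through cells given M5. Their direction was thus largely fixed by the filter. A further 10 members did not pass it, among them LTF with 6 counts over the untreated and 0 over the M5 libraries and PGLYRP3 with 0 and 6. S100A8 had 0.0256, 0 and 0.050 CPM in the untreated libraries and 114, 113 and 111 CPM in the M5 libraries. S100A9, its partner in calprotectin, had 8.02, 8.46 and 9.0 CPM in the untreated libraries and 969, 946 and 947 CPM in the M5 libraries. S100A7, psoriasin, had 0.0767, 0.233 and 0.0750 CPM in the untreated libraries and 54.8, 53.9 and 51.2 CPM in the M5 libraries. The groups were apart in all 3. S100A8 had 3 counts over the untreated libraries and was 4428-fold higher (95% counting interval 1515 to 21473, edgeR adjusted p = 2.64e-26), while S100A9 and S100A7 rose by 6.81 ± 0.05 and 8.67 ± 0.18 (SE) in log2. PI3, the elastase inhibitor elafin, had 0.153, 0.389 and 0.175 CPM in the untreated libraries and 287, 295 and 296 CPM in the M5 libraries. Its log2 fold change was 10.24 ± 0.09 (SE, edgeR adjusted p = 1.74e-30). LCN2, which withholds iron from bacteria, rose from 16.4 ± 1.81 to 819 ± 13.1 CPM. DEFB4A, beta-defensin 2, had no count in untreated cells and was at least 155-fold higher (edgeR adjusted p = 6.33e-13). SAA1 and SAA2, acute-phase proteins, rose from 5.19 ± 0.742 to 206 ± 5.93 CPM and from 1.04 ± 0.122 to 101 ± 2.78 CPM. HMGB1, a nuclear protein that is an alarmin only when released, was the 1 member that fell, from 669.9 ± 11.8 to 599.8 ± 7.05 CPM. S100A7 and S100A7A, SAA1 and SAA2 and the copies of DEFB4A share sequence, so their separate values are uncertain.

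The largest fold change of any gene named was in a protease inhibitor. SERPINB3, squamous cell carcinoma antigen 1, had 0, 0.0259 and 0 CPM in the untreated libraries and 531, 512 and 589 CPM in the M5 libraries. With 1 count over the untreated libraries it was 64014-fold higher (95% counting interval 11489 to 2528450.0, edgeR adjusted p = 1.26e-30). SERPINB4, its near-identical neighbour, had 0.0767, 0.0259 and 0.0250 CPM in the untreated libraries and 833, 782 and 883 CPM in the M5 libraries. Its log2 fold change was 14.15 ± 0.11 (SE, edgeR adjusted p = 8.46e-32), and how reads were split between the 2 genes is uncertain. In the whole list of serpins and other inhibitors, 12 of 20 tested members were called higher and 4 lower. The shares over all tested genes were 28.3% and 26.9%, and the median log2 fold change of the list was 1.05. SERPINA3, an acute-phase antiprotease, rose from 0.0424 ± 0.0533 to 24.4 ± 1.25 CPM, SERPINB13 from 29.5 ± 1.84 to 230.0 ± 8.66 CPM and SERPINB7 from 12.8 ± 0.910 to 126 ± 3.6 CPM. TIMP3 and TIMP2, inhibitors of metalloproteinases, fell from 63.9 ± 1.52 to 21.5 ± 1.06 CPM and from 114 ± 1.96 to 78.7 ± 2.14 CPM.

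Complement genes gave 13 higher and 3 lower of 18 tested, with a median of 1.29, against 28.3% and 26.9% of all tested genes. C3, the central component, rose from 71.7 ± 1.51 to 628 ± 13 CPM, and CFB, factor B of the alternative pathway, from 6.41 ± 0.794 to 459 ± 8.57 CPM. C1R and C1S, proteases of the complex that starts the classical pathway, rose from 31.2 ± 2.45 to 179 ± 0.974 CPM and from 15.1 ± 0.669 to 89.2 ± 2.59 CPM. C5 fell from 1.5 ± 0.372 to 0.504 ± 0.0505 CPM. Of molecules for adhesion and T-cell contact, 12 of 17 tested were called higher and 0 lower, against the same shares of all tested genes. Their median log2 fold change was 1.21. ICAM1, the ligand of leukocyte LFA-1, had 42.5, 50.2 and 48.2 CPM in the untreated libraries and 434, 423 and 425 CPM in the M5 libraries. It rose by 3.19 ± 0.04 (SE, edgeR adjusted p = 3.58e-26) in log2 without overlap. CD274, the checkpoint ligand PD-L1, rose from 6.13 ± 0.688 to 49.6 ± 0.371 CPM. Antigen presentation genes, mostly of class I, moved little but mostly upward. Of that list, which also holds class II genes, 12 of 17 tested members were called higher and 1 lower. The 1 called lower was HLA-DMA of class II, at -0.57 in log2. The median log2 fold change was 0.46, and no member reached a 2-fold change. HLA-B rose from 52.8 ± 3.34 to 89.4 ± 5.54 CPM and B2M from 609.5 ± 21.6 to 904 ± 34.1 CPM.

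Interferon-stimulated genes went in both directions. Of 34 tested, 16 were higher, 8 lower and 10 not called, against 28.3% higher and 26.9% lower over all tested genes. At library totals 16 were higher and 13 lower, where all 14207 tested genes gave 2675 higher and 5823 lower. OASL rose from 1.68 ± 0.575 to 45.2 ± 0.878 CPM and IFITM3 from 193 ± 11.8 to 411 ± 4.83 CPM. IFIT1, an antiviral sensor of the type I interferon response, had 21.8, 21.8 and 23.6 CPM in the untreated libraries and 5.83, 6.71 and 6.52 CPM in the M5 libraries. It fell by 1.82 ± 0.11 (SE, edgeR adjusted p = 3.31e-13) on the log2 scale. IFIT2 fell from 56.2 ± 1.60 to 28.9 ± 0.752 CPM. Of pattern recognition and inflammasome genes, 10 of 23 tested were called higher and 8 lower, against 28.3% and 26.9% of all tested genes. Their median log2 fold change was 0.39. CASP4 rose from 41.7 ± 0.933 to 92.3 ± 1.02 CPM and TLR5 fell from 1.15 ± 0.102 to 0.280 ± 0.126 CPM.

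**Figure D3:**
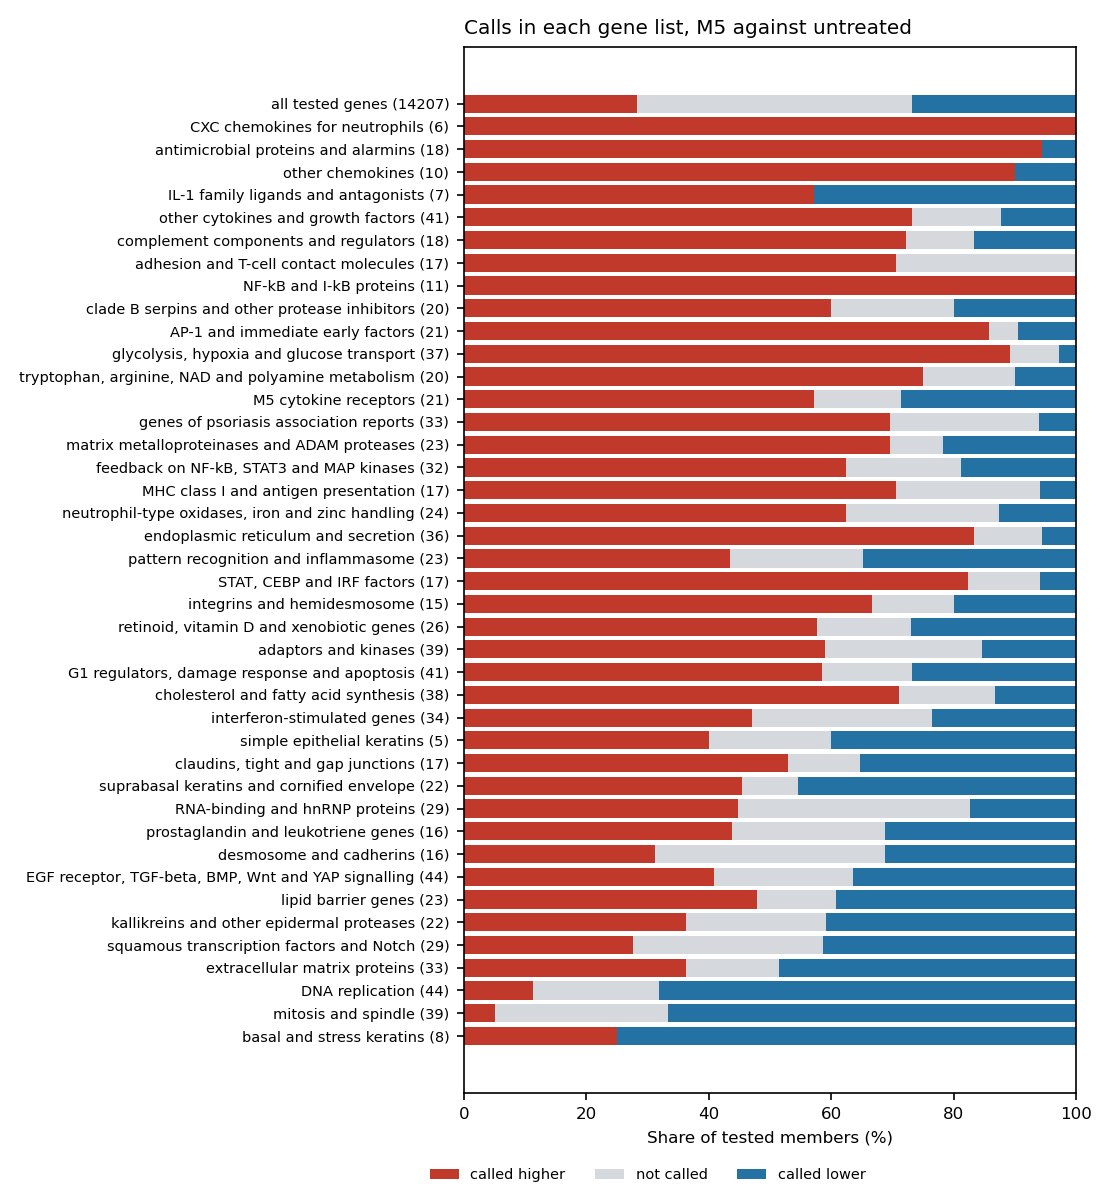
Each bar is 1 gene list, with its number of tested members in brackets, and gives the share of these members called higher (red), not called (grey) and called lower (blue) in M5. The top bar gives all 14207 tested genes, of which 28.3% were higher and 26.9% lower. The chemokine, antimicrobial and NF-kB lists are nearly all red, and the DNA replication, mitosis and basal keratin lists are mostly blue. Some chemokine and antimicrobial members, with at most 3 counts over the untreated libraries, passed the filter only through cells given M5.

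Some of the largest gains in CPM were in enzymes and transporters. SOD2, the mitochondrial superoxide dismutase induced by NF-kB, had 87.5, 82.8 and 86.1 CPM in the untreated libraries and 2909, 2841 and 3019 CPM in the M5 libraries. This gain, with a log2 fold change of 5.10 ± 0.03 (SE, edgeR adjusted p = 3.67e-32), was the largest in CPM of any tested gene. CTSB, a lysosomal protease, rose from 327 ± 8.42 to 2087 ± 47.2 CPM, SAT1, which degrades polyamines, from 107 ± 1.52 to 1009 ± 26.4 CPM, and HAS3, which makes hyaluronan, from 46.5 ± 2.78 to 949.5 ± 24.2 CPM. In the list of oxidases, iron and zinc handling, 15 of 24 tested members were called higher and 3 lower. The shares over all tested genes were 28.3% and 26.9%, and the median log2 fold change of the list was 0.45. TFRC, the transferrin receptor, rose from 550.2 ± 33.7 to 1229.8 ± 46.6 CPM, MT2A, a metallothionein, from 96.0 ± 9.49 to 508 ± 44.9 CPM, and SLC39A8, a zinc importer, from 17.1 ± 1.87 to 106 ± 2.67 CPM. NOS2, the inducible nitric oxide synthase, had no count in the untreated libraries and was at least 31.4-fold higher (edgeR adjusted p = 1.94e-06). Of tryptophan, arginine, NAD and polyamine genes, 15 of 20 tested members were called higher and 2 lower, with a median log2 fold change of 0.62. KYNU of the kynurenine pathway rose from 10.02 ± 0.838 to 104 ± 2.76 CPM, NAMPT, the NAD salvage enzyme, from 124 ± 4.57 to 639 ± 23.1 CPM, and NNMT from 0.798 ± 0.188 to 28.6 ± 0.842 CPM. IDO1, the first enzyme of that pathway, was low in both groups and rose from 0.0167 ± 0.0289 to 1.17 ± 0.382 CPM.

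Of 16 tested prostaglandin and leukotriene genes, 7 were higher and 5 lower, against 28.3% higher and 26.9% lower over all tested genes. Their median log2 fold change was 0.03, and -0.08 at library totals. PTGS2, the inducible cyclooxygenase, had 6.21, 5.99 and 8.25 CPM in the untreated libraries and 429.9, 425 and 457 CPM in the M5 libraries. It rose by 6.001 ± 0.06 (SE, edgeR adjusted p = 1.90e-28) in log2, with no overlap. PTGES, the following synthase of prostaglandin E2, rose from 162 ± 8.72 to 334 ± 5.56 CPM. HPGD, which inactivates prostaglandins, and PTGIS, which makes prostacyclin, fell from 2.78 ± 0.588 to 0.691 ± 0.254 CPM and from 0.955 ± 0.262 to 0.244 ± 0.127 CPM. PLA2G4E, a phospholipase A2, rose from 0.0417 ± 0.0722 to 15.1 ± 0.687 CPM.

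Proteases and matrix genes went in both directions. Of metalloproteinases and ADAM proteases, 16 of 23 tested members were called higher and 5 lower, with a median log2 fold change of 0.50. MMP13 rose from 1.61 ± 0.429 to 53.7 ± 0.373 CPM, MMP1 from 0.128 ± 0.0944 to 8.04 ± 0.850 CPM and MMP7 from 8.0 ± 1.72 to 85.8 ± 2.36 CPM, and PLAT, the tissue plasminogen activator, from 54.8 ± 1.24 to 791 ± 23.0 CPM. ADAMTS4, an aggrecanase, had 2 counts over the untreated libraries and was 573-fold higher (95% counting interval 158 to 4734, edgeR adjusted p = 3.39e-16), while its relatives ADAMTS1 and ADAMTS6 fell from 8.04 ± 1.60 to 1.91 ± 0.369 CPM and from 7.18 ± 0.439 to 1.66 ± 0.376 CPM. Of extracellular matrix proteins, 12 of 33 tested members were called higher and 16 lower, with a median log2 fold change of -0.12, against 28.3% higher and 26.9% lower over all tested genes. LAMA3 and LAMB3, laminin chains of the epidermal basement membrane, rose from 127 ± 8.79 to 258 ± 4.70 CPM and from 300.1 ± 5.21 to 753 ± 26.2 CPM. Chains of other laminins fell, LAMA5 from 433 ± 10.1 to 324 ± 8.53 CPM, LAMB1 from 195 ± 13.6 to 152 ± 2.30 CPM, LAMB2 from 101 ± 1.65 to 45.5 ± 1.81 CPM and LAMC1 from 337 ± 20.6 to 293 ± 7.97 CPM. FBLN5, an elastic fibre protein, had 0, 0 and 0.050 CPM in the untreated libraries and 19.1, 21.1 and 23.3 CPM in the M5 libraries. It was 1246-fold higher (95% counting interval 344 to 10293, edgeR adjusted p = 4.44e-18). THBS1, thrombospondin-1, fell from 831 ± 50.4 to 289 ± 5.08 CPM. CCN1 and CCN2, matricellular proteins known as YAP targets, fell from 78.1 ± 3.30 to 50.3 ± 1.27 CPM and from 1.61 ± 0.104 to 0.252 ± 0.0853 CPM. ANKRD1 and AMOTL2, further known YAP targets, fell from 19.1 ± 0.736 to 7.71 ± 0.678 CPM and from 152 ± 5.54 to 110.1 ± 4.88 CPM. Integrins and hemidesmosome genes gave 10 higher and 3 lower of 15, with ITGB6 rising from 21.4 ± 1.68 to 85.7 ± 2.60 CPM and DST, the hemidesmosomal plakin BPAG1, falling from 177 ± 18.5 to 83.0 ± 2.98 CPM. Desmosome and cadherin genes gave 5 of each among 16, and 2 higher against 9 lower at library totals. At those totals 2675 of all 14207 tested genes were higher and 5823 lower. CDH3, P-cadherin, rose from 314 ± 4.71 to 936 ± 8.95 CPM. Of claudins and other tight and gap junction genes, 9 of 17 tested members were called higher and 6 lower, with a median log2 fold change of 0.15. CLDN1, a claudin of the epidermal barrier, rose from 376 ± 11.4 to 743 ± 19.3 CPM.

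Keratins of the basal layer and of stressed epidermis fell for the most part. Of 8 tested, 6 were lower and 2 higher, with a median log2 fold change of -1.06, against 26.9% of all tested genes called lower. KRT16, a keratin known for its high level in psoriatic epidermis, had 24.7, 27.1 and 26.8 CPM in the untreated libraries and 4.12, 3.27 and 2.71 CPM in the M5 libraries. It fell by 2.96 ± 0.14 (SE, edgeR adjusted p = 2.92e-15) on the log2 scale, and every M5 library lay below every untreated one. KRT5 had 1588, 1680.2 and 1627 CPM in the untreated libraries and 666, 619 and 627 CPM in the M5 libraries. KRT17, a further stress keratin, fell from 29.0 ± 1.03 to 18.8 ± 0.731 CPM. KRT6A, the usual partner of KRT16, rose from 37.9 ± 2.29 to 80.6 ± 2.10 CPM, and KRT6B went from 1 count over the untreated libraries to 2.53 ± 0.539 CPM. Reads of KRT6A and KRT6B may be shared. Simple epithelial keratins, which HaCaT cells express strongly, moved less. KRT7 fell from 2474 ± 109 to 1627 ± 54.9 CPM. KRT8 and KRT18 rose by 0.17 and 0.36 in log2, and KRT8 was no longer called at library totals, at 0.05.

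Differentiation genes went in both directions. Of suprabasal keratins and cornified envelope genes, 10 were higher and 10 lower among 22 tested. The median log2 fold change was 0.09, and -0.03 at library totals. IVL, involucrin, a cornified envelope precursor, had 6.85, 6.28 and 6.17 CPM in the untreated libraries and 0.401, 0.440 and 0.134 CPM in the M5 libraries. It fell by 4.30 ± 0.31 (SE, edgeR adjusted p = 1.19e-11) on the log2 scale. FLG, filaggrin, fell from 3.48 ± 0.677 to 0.586 ± 0.0920 CPM, and KRT9 from 2.78 ± 0.899 to 0.127 ± 0.0806 CPM. PPL, periplakin, fell from 115 ± 5.83 to 55.4 ± 2.97 CPM. Of the small proline-rich genes, a further kind of envelope precursor, 6 were tested and called higher. SPRR2B, SPRR2G, SPRR3 and SPRR4 did not pass the filter, with SPRR3 at 9 counts over the untreated and 5 over the M5 libraries. SPRR2A had 0.230, 0.0778 and 0.050 CPM in the untreated libraries and 16.1, 17.0 and 15.9 CPM in the M5 libraries. It rose by 7.06 ± 0.18 (SE, edgeR adjusted p = 7.05e-21) in log2, and SPRR2E, SPRR2D, SPRR2F, SPRR1A and SPRR1B were called higher from at most 3 counts each over the untreated libraries. The SPRR2 genes are near copies, and their separate counts are uncertain. TGM1, the crosslinking enzyme of the envelope, stood at 2.75 ± 0.340 and 3.06 ± 0.291 CPM and was not called. Among squamous transcription factors and Notch genes, 8 of 29 tested members were called higher and 12 lower, with a median log2 fold change of -0.09, against 28.3% higher and 26.9% lower over all tested genes. PRDM1, Blimp-1, rose from 0.0683 ± 0.0395 to 1.15 ± 0.177 CPM, SOX2 from 0.306 ± 0.0881 to 4.56 ± 0.334 CPM and EHF from 308 ± 16 to 697 ± 25.4 CPM. NOTCH3 fell from 19.1 ± 0.775 to 9.02 ± 1.59 CPM, GATA3 from 41.4 ± 0.921 to 21.7 ± 0.991 CPM and TP73 from 2.31 ± 0.461 to 0.424 ± 0.0628 CPM. Lipid barrier genes gave 11 higher and 9 lower of 23, with ABCA12, the lipid transporter of lamellar granules, rising from 4.82 ± 0.703 to 16.3 ± 0.533 CPM and the ceramide enzyme SPTLC3 falling from 2.92 ± 0.563 to 0.530 ± 0.170 CPM. Of kallikreins and other epidermal proteases, 8 of 22 tested members were called higher and 9 lower, with a median log2 fold change of -0.05. These shares compare with 28.3% higher and 26.9% lower over all tested genes. KLK5 fell from 124 ± 4.72 to 71.7 ± 2.46 CPM and CTSS rose from 3.84 ± 0.0441 to 29.2 ± 0.665 CPM.

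Glycolysis and hypoxia genes were higher in 33 of 37 tested members and lower in 1, with a median log2 fold change of 0.68. At library totals 29 were higher and 2 lower, beside 2675 higher and 5823 lower of all 14207 tested genes. HIF1A had 231, 209 and 234 CPM in the untreated libraries and 734, 746 and 817 CPM in the M5 libraries. It rose by 1.77 ± 0.04 (SE, edgeR adjusted p = 1.74e-21) in log2. LDHA, lactate dehydrogenase A, rose from 1548 ± 31.1 to 2403 ± 25.2 CPM, and BNIP3, a known HIF-1 target, from 2.69 ± 0.00882 to 13.6 ± 0.890 CPM. SLC2A3, a glucose transporter, was scarce in both groups but rose from 0.135 ± 0.0790 to 1.16 ± 0.226 CPM. Genes of the endoplasmic reticulum and secretion were higher in 30 of 36, by smaller amounts, with a median of 0.43. HSPA5, the chaperone BiP, rose from 731 ± 13.6 to 1408 ± 26.0 CPM, and XBP1 and ERN1 of the unfolded protein response rose from 71.0 ± 1.80 to 192 ± 1.19 CPM and from 12.9 ± 1.78 to 33.2 ± 2.13 CPM. Of cholesterol and fatty acid genes, 27 of 38 tested members were called higher and 5 lower, with a median log2 fold change of 0.25. All tested genes gave 28.3% higher and 26.9% lower. In retinoid, vitamin D and xenobiotic genes, 15 of 26 tested members were called higher and 7 lower, with a median log2 fold change of 0.36. CYP27B1, which activates vitamin D, rose from 3.97 ± 0.497 to 50.8 ± 3.36 CPM, AKR1C2 from 7.65 ± 0.538 to 168 ± 4.06 CPM, and RARG, the main epidermal retinoic acid receptor, fell from 98.4 ± 2.41 to 47.5 ± 3.11 CPM. AKR1C genes may share reads, so the value of AKR1C2 is uncertain.

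Proliferation genes were lower by small amounts. Of 44 DNA replication genes, 30 were called lower and 5 higher, against 26.9% lower of all tested genes, and the median was -0.19. Of 39 mitosis genes, 26 were lower and 2 higher, with a median of -0.19. No member of either list changed 2-fold. MKI67, the proliferation marker Ki-67, had 858, 718 and 829.8 CPM in the untreated libraries and 699, 679 and 707 CPM in the M5 libraries. The groups did not overlap, and the log2 fold change was -0.21 ± 0.04 (SE, edgeR adjusted p = 3.56e-04). MCM3 of the replicative helicase had -0.36 and CENPF -0.37 in log2. CDC25B and CCNE1 rose, from 241 ± 2.78 to 428 ± 8.96 CPM and from 10.5 ± 0.981 to 15.5 ± 1.83 CPM. In G1 regulators, damage response and apoptosis genes, 24 of 41 tested members were called higher and 11 lower. The shares over all tested genes were 28.3% and 26.9%, and the median log2 fold change of the list was 0.25. CDKN1A, the inhibitor p21, rose from 28.1 ± 0.462 to 90.4 ± 2.05 CPM, while CCND1, cyclin D1, fell from 369.8 ± 7.28 to 237 ± 8.42 CPM. BCL2A1, an antiapoptotic gene induced by NF-kB, had no count in the untreated libraries and 5.72, 5.85 and 5.68 CPM in the M5 libraries. It was at least 226-fold higher (edgeR adjusted p = 2.00e-15). CFLAR, the caspase-8 inhibitor c-FLIP, rose from 15 ± 0.562 to 71.3 ± 2.38 CPM, and the death receptor FAS from 21.1 ± 2.52 to 48.5 ± 1.88 CPM.

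Among growth factor, BMP, Wnt and YAP pathway genes, 18 of 44 tested members were called higher and 16 lower, with a median log2 fold change of 0.03, and at library totals 13 were higher and 19 lower. Over all tested genes, 28.3% were called higher and 26.9% lower, and at library totals 2675 and 5823 of 14207. DKK1, a secreted Wnt antagonist, had 193, 211 and 204 CPM in the untreated libraries and 42.8, 42.3 and 41.7 CPM in the M5 libraries. It fell by 2.26 ± 0.04 (SE, edgeR adjusted p = 2.58e-24) on the log2 scale. SMAD6 and ID3, BMP targets, fell from 20.8 ± 1.85 to 5.69 ± 0.549 CPM and from 148 ± 8.86 to 66.5 ± 3.67 CPM, while ID1, a further BMP target, rose from 171 ± 13.2 to 298 ± 2.84 CPM. WNT4 rose from 0.451 ± 0.159 to 7.47 ± 1.05 CPM.

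The RNA-binding and hnRNP genes gave 13 higher and 5 lower of 29 tested by TMM scaling, but 3 higher and 12 lower at library totals, and no member changed 2-fold. By TMM scaling, 28.3% of all tested genes were higher and 26.9% lower. At library totals 2675 of all 14207 were higher and 5823 lower. HNRNPU, which binds chromatin-associated RNA, had 889, 862 and 888 CPM in the untreated libraries and 987, 939 and 997 CPM in the M5 libraries. Its log2 fold change was 0.15 ± 0.03 (SE, edgeR adjusted p = 1.16e-04). At library totals its log2 fold change was 0.03 and not called.

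The largest falls were in genes of mixed function. By the rule of at least 5 CPM in a group and no overlap, the 15 largest began with VIT, an extracellular matrix protein, at 5.16, 5.21 and 5.25 CPM in the untreated libraries and 0.187, 0.0825 and 0.161 CPM in the M5 libraries. CPA4, a carboxypeptidase, had 37.6, 38.4 and 41.6 CPM in the untreated libraries and 1.26, 1.18 and 1.31 CPM in the M5 libraries. ANK1, the membrane skeleton protein ankyrin-1, had 24.3, 21.2 and 21.9 CPM in the untreated libraries and 1.10, 0.770 and 0.724 CPM in the M5 libraries. The 3 genes had log2 fold changes of -5.14 ± 0.35, -4.97 ± 0.12 and -4.70 ± 0.16 (SE), and their lack of overlap was part of the rule. MAP2K6, a kinase that activates p38, had 14.5, 13.9 and 14.4 CPM in the untreated libraries and 1.04, 1.18 and 1.18 CPM in the M5 libraries. It fell by 3.65 ± 0.18 (SE, edgeR adjusted p = 9.46e-15) on the log2 scale. Others of the 15 were INHBB, a subunit of activin B, from 6.73 ± 1.19 to 0.511 ± 0.278 CPM, MYLK, the myosin light chain kinase, from 5.71 ± 1.23 to 0.542 ± 0.152 CPM, METTL7A from 16.6 ± 0.595 to 1.25 ± 0.189 CPM, SLITRK6 from 6.63 ± 1.03 to 0.332 ± 0.121 CPM and KRT4 from 7.89 ± 1.05 to 0.809 ± 0.253 CPM. In CPM the largest losses were in abundant genes. SLC7A5 and SLC3A2, the light and heavy chains of an amino acid transporter, fell from 4643 ± 58.7 to 2609.6 ± 47.2 CPM and from 1496 ± 37.1 to 849 ± 22.4 CPM. The cytoplasmic actins ACTG1 and ACTB fell from 4196 ± 101 to 3291 ± 80.2 CPM and from 4954 ± 159.9 to 4292 ± 64.2 CPM, and the actin crosslinker FLNA from 2359 ± 71.5 to 1589 ± 51.8 CPM. CAV1 and CAVIN1, which form caveolae, fell from 801 ± 18.8 to 277 ± 11.5 CPM and from 645 ± 2.26 to 360.5 ± 8.09 CPM.

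Changed genes that are neighbours in the genome formed 11 runs of at least 4 tested genes in RefSeq order, all called in 1 direction and at least 2-fold. Of these, 9 were higher in M5 and 2 lower. A run of 7 held RASSF6 and the CXC chemokines CXCL8, CXCL6, CXCL1, PPBP, CXCL5 and CXCL3. Runs of 6 held PGLYRP4 with S100A9, S100A12, S100A8, S100A7A and S100A7, and SPRR1A, SPRR1B, SPRR2D, SPRR2A, SPRR2E and SPRR2F. A further run of 6 held the phospholipases PLA2G4E and PLA2G4D with EHD4, SPTBN5 and 2 noncoding genes. SERPINB13, SERPINB4, SERPINB3, SERPINB7 and SERPINB2 made a run of 5, as did WFDC5, PI3, SEMG1, SLPI and SDC4. The receptors IL1R2, IL1R1, IL1RL1 and IL18R1 stood in a run of 5 with LINC01127, and MMP7, MMP10, MMP1 and MMP13 in a run of 4. HIF1A and its antisense genes HIF1A-AS1 and HIF1A-AS2 with LINC01303 made the last rising run. Since the labels do not state whether strand was used in counting, reads of HIF1A and its antisense partners cannot be told apart. HIF1A-AS1 lost its call without untreated replicate 3 (0.79) or M5 replicate 2 (0.55 in log2). The falling runs were the pregnancy-specific glycoproteins PSG8, PSG1, PSG5 and PSG9, and NEBL, LINC02643, MIR1915HG and SKIDA1. Near copies within a run can share reads.

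Promoters of the genes that rose were examined for binding motifs, since many rose together. RefSeq sequences (GRCh38.p14) from 250 bases before to 50 after the start were matched by symbol for 11129 of the 14207 tested genes. Of the 15 genes with the largest rise, CSF3 and PI3 had no match. Of the other 13, 4 held a match to the NF-kB consensus on either strand. They are shown because they hold this match, and encode a chemokine for lymphocytes, a chemokine for neutrophils, a chitinase-like protein and a feedback inhibitor. The match, or its reverse complement, is in capitals, and sequences run 5′ to 3′ on the strand of the gene.
CCL20: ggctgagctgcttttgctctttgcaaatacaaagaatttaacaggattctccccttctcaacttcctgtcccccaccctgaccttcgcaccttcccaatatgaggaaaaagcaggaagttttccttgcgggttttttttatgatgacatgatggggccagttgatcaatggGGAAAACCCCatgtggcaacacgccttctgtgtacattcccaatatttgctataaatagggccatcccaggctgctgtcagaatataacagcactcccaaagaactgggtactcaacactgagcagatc
CXCL5: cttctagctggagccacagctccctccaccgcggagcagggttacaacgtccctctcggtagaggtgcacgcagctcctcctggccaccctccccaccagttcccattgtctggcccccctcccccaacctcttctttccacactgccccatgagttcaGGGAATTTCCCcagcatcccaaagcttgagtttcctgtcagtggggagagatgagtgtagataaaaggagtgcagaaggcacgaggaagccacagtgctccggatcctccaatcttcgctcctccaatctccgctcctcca
CHI3L2: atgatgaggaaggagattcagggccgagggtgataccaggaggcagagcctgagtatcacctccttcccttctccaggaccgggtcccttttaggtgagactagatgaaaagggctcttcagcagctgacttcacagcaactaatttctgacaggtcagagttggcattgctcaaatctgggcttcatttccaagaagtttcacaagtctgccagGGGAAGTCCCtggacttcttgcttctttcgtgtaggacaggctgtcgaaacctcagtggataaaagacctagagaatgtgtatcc
TNIP3: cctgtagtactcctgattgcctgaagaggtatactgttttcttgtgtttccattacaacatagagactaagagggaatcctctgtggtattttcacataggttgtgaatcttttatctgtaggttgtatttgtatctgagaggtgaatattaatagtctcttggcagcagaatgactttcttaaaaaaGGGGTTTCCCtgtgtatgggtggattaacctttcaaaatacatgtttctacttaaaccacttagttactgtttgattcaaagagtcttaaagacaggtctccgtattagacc

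These windows lie at chr2:227813592-227813891, plus strand (CCL20), chr4:73998628-73998927, minus strand (CXCL5), chr1:111227409-111227708, plus strand (CHI3L2) and chr4:121227434-121227733, minus strand (TNIP3). The match begins 79 bases before the start in CCL20, 35 before it in CHI3L2 and 62 before it in TNIP3. CXCL5 has 2 overlapping matches, which begin 91 and 90 bases before the start. CHI3L2 had 0, 0.0259 and 0 CPM in the untreated libraries and 8.98, 8.57 and 10.1 CPM in the M5 libraries. With 1 count over the untreated libraries, CHI3L2 was 1087-fold higher (95% counting interval 195 to 42971, edgeR adjusted p = 1.45e-13). A match is a description of the letters and does not show that a factor was bound.

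The NF-kB consensus occurred in 17.0% of the 147 promoters of genes called and at least 8-fold higher and in 12.8% of the 514 at least 2-fold higher. It occurred in 5.49% of the 546 promoters of genes at least 2-fold lower, in 6.54% of all 11129 tested and in 5.72% of all 27305 promoters in the table. For AP-1 (TGANTCA) the shares at least 8-fold higher, at least 2-fold lower and over all tested were 21.1%, 10.4% and 5.09%, so promoters of falling genes held it more often than those of all tested genes as well. For C/EBP (TTGCNNAA) they were 17.0%, 10.8% and 7.18%, and for STAT (TTCNNNGAA) 11.6%, 7.88% and 6.46%. Of all 27305 promoters in the table, 7.76% held the AP-1, 10.6% the C/EBP and 7.88% the STAT motif. No promoter of the 514 held the E2F motif TTTGGCGC, which occurred in 1.1% of all tested and in 0.659% of the table. The hypoxia element TACGTG occurred in 2.72% of the 514 and in 3.5% of all tested and 3.33% of the table. Base composition moved with these classes. Median GC content was 54.3% in the promoters at least 8-fold higher, 61.3% in those at least 2-fold lower and 65.0% in all tested, and its part in the shares was not tested.

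**Figure D4:**
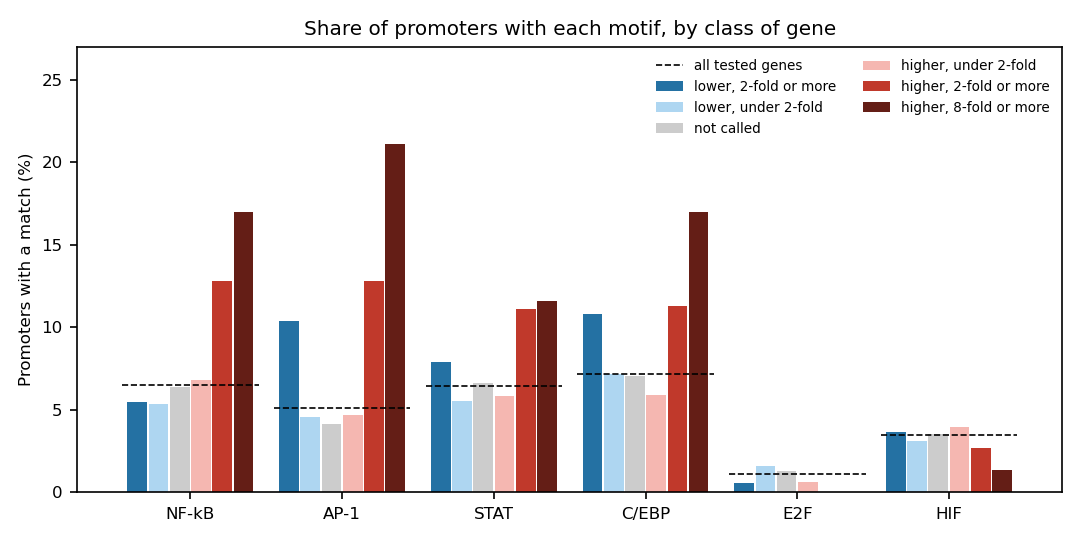
Bars give the percentage of promoters, 250 bases before to 50 after the RefSeq start, that hold each of 6 motifs on either strand, for 6 classes of genes by their change in M5 (lower by 2-fold or more to higher by 8-fold or more). Dashed lines give the share over all 11129 tested genes with a promoter. The NF-kB, AP-1, C/EBP and STAT bars are tallest for the genes 8-fold or more higher. The classes of 2-fold and 8-fold higher genes overlap.

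The libraries of cells given M5 and a compound were not tested here, and their levels are only set beside those of M5 for the same genes. SERPINB3 was at 544 ± 40.2 CPM with M5, 55.5 ± 1.60 with M5 and lefamulin and 13.7 ± 0.209 with M5 and retapamulin. IL19 was at 44.7 ± 1.70, 0.346 ± 0.153 and 0.0881 ± 0.0885 CPM in the same order. LCN2 was at 819 ± 13.1, 753 ± 10.9 and 606 ± 19.98 CPM. Of genes that fell in M5, KRT5 was at 637 ± 25.3, 454 ± 8.12 and 437 ± 12.4 CPM and ANK1 at 0.863 ± 0.203, 0.329 ± 0.118 and 0.118 ± 0.00203 CPM. The levels of these 2 genes thus lay further below the untreated level with a compound, while SERPINB3 and IL19 lay between the untreated and the M5 level. The 720 genes at least 2-fold higher in M5 took 6.87% of counts with M5, 6.06% ± 0.0278 with lefamulin and 6.25% ± 0.00198 with retapamulin.

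**Figure D5:**
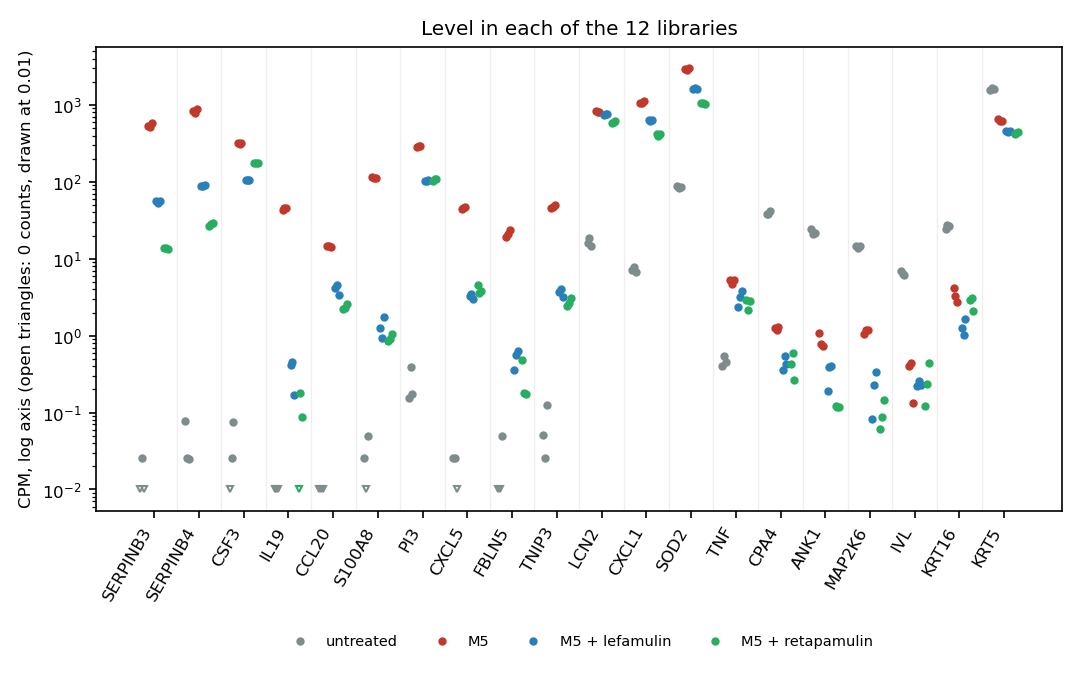
Points give the CPM of 20 genes in each of the 12 libraries on a log axis, coloured by group, and triangles at 0.01 mark libraries with no count. For each of the 20 genes the 3 M5 points lie apart from the 3 untreated ones, above them for the 14 genes on the left and below them for the 6 on the right. Many of the 20 were named by a rule that asks for no overlap, so for them this was fixed beforehand. Of all tested genes, 59.2% did not overlap.

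Among genes named in reports of psoriasis association, 23 of 33 tested were called higher and 2 lower, against 28.3% and 26.9% of all tested genes. The median log2 fold change was 0.57. The list includes regulators already described, TNFAIP3, TNIP1, NFKBIZ, IL36RN and SOCS1, so it adds no separate evidence. KLF4, a differentiation factor, rose from 3.09 ± 0.489 to 5.39 ± 0.443 CPM and ETS1 from 42.6 ± 2.24 to 99.5 ± 2.48 CPM. AP1S3, an adaptor of vesicle transport, fell from 43.9 ± 0.464 to 28.6 ± 1.33 CPM. CARD14, which activates NF-kB in keratinocytes, stood at 0.714 ± 0.122 and 0.911 ± 0.235 CPM and was not called.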

How the data were processed

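RNA sequencing of 12 HaCaT libraries, 4 groups of 3, was used. The authors named HISAT2 and HTSeq per the submitters' processing notes. Their versions, the genome build, the strand setting and any filters are not stated there or in the labels. The labels name HaCaT as source throughout, yet their extraction text speaks of epidermis from mice, so that text was left aside. In the authors' deposited count table, 22545 gene symbols carry raw whole-number counts. A second deposited table holds FPKM by the authors, which equalled the count divided by a fixed length and the column total within a coefficient of variation of 0.001 for all 20422 genes compared.

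The main test was edgeR's quasi-likelihood test (edgeR 4.0.16 in R 4.3.3) after filterByExpr and TMM scaling. Each of the 4 groups had its own mean, all 12 libraries entered (8 residual degrees of freedom), and no block was used. The contrast M5 minus untreated was adjusted by Benjamini-Hochberg over 14207 genes and called under 0.05. The test was checked on simulated data. Totals over the 12 libraries ran from 35110519 to 37520999 counts. No 2 untreated and no 2 M5 replicates agreed within sampling noise. Where a group had no count, the fold is a bound against 3 counts over that group. Where it had 1 to 3, it is a ratio with an exact 95% counting interval, which covers counting error only.

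The members, the 46 gene lists and the tests were chosen with earlier results of these data known. Of 1240 list entries 1178 were in the table (2 by an older symbol) and 1015 were tested, 975 distinct genes. Named genes are the 15 largest rises and falls with at least 5 CPM in a group and no overlap, the 12 largest gains and losses in CPM, the 10 most abundant called genes with no count in 1 group, list members with their own values, TNF, HNRNPU and the runs of neighbours. Not all of them are printed, and some genes are not reported here. Lists are described by counts and medians and were not tested as sets. Motifs were counted in RefSeq promoters (GRCh38.p14) on both strands. Alternatives were RLE size factors, library totals, DESeq2 1.42.0, 2 other filters, a fit of 6 libraries, a replicate block, limma 3.58.1 on log2 FPKM with pseudocounts of 1 and 0.1, and leaving out each of the 6 libraries.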

Additional observations from a re-analysis of the deposited data

How the results depend on the processing

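Of 284 named genes under 15 alternatives, 4239 values in all, 4211 kept their direction and their side of the threshold, 18 kept the direction but lost the call, 5 gained a call and 5 changed sign. These 5 were all of BTC, which was called under none of them. The BTC log2 fold change was -0.08831 with library totals, -0.03294 and -0.07886 with FPKM and pseudocounts of 1 and 0.1, and ran from -0.122 to 0.1687 without each library in turn. At library totals alone 2675 genes were called higher and 5823 lower, with a median log2 fold change of -0.1385. With limma on the deposited values as log2(FPKM + 1), which are likewise scaled by totals, 2574 were higher and 5771 lower, 319 at least 2-fold higher and 164 at least 2-fold lower, with a median of -0.08127. With log2(FPKM + 0.1), 2619 were higher and the median was -0.1282. The median was -0.01154 with RLE size factors and with DESeq2, -0.01167 in a fit of the 6 libraries alone and 0 with no filter. Leaving out each library in turn gave 3765 to 3966 genes higher, 3442 to 3632 lower and a median from -0.0217 to -0.0133.

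Medians of some lists changed sign. That of cornified envelope genes was -0.02524 at library totals, -0.2999 in the fit of 6 libraries, and -0.02457 and -0.02474 with FPKM and pseudocounts of 1 and 0.1. In the same FPKM fits the RNA-binding list had -0.04418 and -0.04511 (-0.04563 at library totals), the keratinocyte markers -0.008287 and -0.009186 (-0.009239) and the fibroblast markers -0.09181 and -0.02368. With a filter of 1 CPM in 3 libraries, simple keratins had -0.1484 and fibroblast markers -0.3059, and the latter had -0.2777 in the fit of 6 libraries. That last value is the value of COL1A1 itself in this fit, 1 of the 2 fibroblast markers tested in the main fit. The cause of the other changes of sign was not tested. No call among all tested genes reversed under any alternative.

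Replicate numbers did not pair the samples: deviations of same-numbered libraries correlated at -0.0358, 0.131 and 0.184, and replicates 2 and 3 but not 1 correlated best with their own number, which is a hint from the data and not the design. A replicate block gave 4001 genes higher and 3779 lower. Depth limits rare genes: 3 counts over a group are 0.0255 CPM in untreated and 0.0270 CPM in M5 libraries.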

Other observations

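Some large changes were in genes outside the lists used above, which were chosen here after their values were seen. Among rises, SLC6A14, an amino acid transporter, had 0.204, 0.389 and 0.450 CPM in the untreated libraries and 102, 104 and 103 CPM in the M5 libraries. PDZK1IP1, a small membrane protein of epithelia, had 0.434, 0.441 and 0.400 CPM in the untreated libraries and 113, 116 and 110.5 CPM in the M5 libraries. The groups did not overlap in either gene, and the log2 fold changes were 8.19 ± 0.10 and 8.04 ± 0.08 (SE). STC1, the secreted glycoprotein stanniocalcin-1, rose from 0.0848 ± 0.0131 to 26.9 ± 1.12 CPM, SGK1, a kinase that regulates ion transport, from 3.50 ± 0.151 to 114 ± 3.46 CPM, and CEMIP, which breaks down hyaluronan, from 2.25 ± 0.155 to 86.4 ± 2.23 CPM. VNN1, the pantetheinase vanin-1, rose from 0.222 ± 0.101 to 11.4 ± 1.32 CPM, TGM2, a transglutaminase, from 1.56 ± 0.253 to 24.4 ± 0.372 CPM, and XDH, xanthine dehydrogenase, from 3.95 ± 0.373 to 53 ± 3.27 CPM. IL32 rose from 3.08 ± 0.579 to 33.8 ± 0.353 CPM and IL7R, a receptor chain for interleukin-7, from 18.7 ± 1.81 to 103 ± 3.11 CPM. OLR1, a scavenger receptor for oxidised lipoprotein, rose from 176 ± 2.94 to 984 ± 20.1 CPM, and TNFAIP2, a gene induced by tumour necrosis factor, from 159.8 ± 1.69 to 755 ± 15.9 CPM.

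Among falls outside the lists, ALPP, placental alkaline phosphatase, had 82.6, 90.5 and 81.8 CPM in the untreated libraries and 11.9, 12.6 and 12 CPM in the M5 libraries. GALNT5, a glycosyltransferase that starts mucin-type sugar chains, had 131, 119.6 and 130.1 CPM in the untreated libraries and 32.6, 30.8 and 30.9 CPM in the M5 libraries. No M5 library of either gene reached the untreated range, and the log2 fold changes were -2.80 ± 0.07 and -2.01 ± 0.05 (SE). KRT81, a hair keratin, fell from 14.6 ± 2.26 to 2.01 ± 0.383 CPM, and reads of hair keratins may be shared between close copies. The transcription factor NR2F1 fell from 19.9 ± 1.83 to 4.59 ± 0.475 CPM, and H19, an imprinted noncoding RNA, from 5.53 ± 0.505 to 1.24 ± 0.303 CPM.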
